A study of Rattus norvegicus with 6 samples.

Results

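The REST sites annotated to Npas4, Camta1 and Phf21b were examined in HCN cells, a line of hippocampal neural stem cells isolated from the adult rat and, per the study's methods, cloned. All sites whose annotated gene was one of these 3 genes were taken, which gave 6 of the 1775 sites in iQNP conditions and 3 of the 778 sites in TAP conditions. TAP cells were kept proliferating with FGF2 alone, and iQNP cells were made quiescent with FGF2 and BMP4. Both conditions share the same cell line, medium and FGF2, and the label gives several passages without saying which passage went into which library. Chromatin immunoprecipitation was done with a commercial REST antibody (Millipore 17-641) and with a mix of 2 homemade REST antibodies, and each was sequenced once per condition beside 1 input library. The columns of the tables carry a library number and condition, and they were assigned to an antibody by matching that number to the numbered antibody of the sample titles. The titles do not name the antibodies, and number 1 was taken as the commercial antibody and number 2 as the homemade mix. The names commercial and homemade rest on this inferred match. With 1 library per antibody and condition, the SD over a condition's libraries includes any difference between the antibodies. The depths, to the nearest 100000, were between 25200000 and 29800000 tags. The genes were chosen by the normalized tags of their strongest sites, which stood among the highest of both conditions, so their levels and ranks are a description and were not tested.

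REST is a zinc finger repressor that binds the RE1 element and recruits the Sin3 and CoREST complexes, through which histones lose acetylation and methylation marks of active genes. It keeps neuronal genes silent outside neurons and in neural stem cells. Npas4 encodes a bHLH-PAS transcription factor that neuronal activity induces, Camta1 encodes a calmodulin-binding transcription activator, and Phf21b encodes a PHD finger protein related to Phf21a, a subunit of the CoREST complex. All 3 are thus themselves regulators of transcription or chromatin.

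Genes long known to carry RE1 elements were looked at first. Their list was written with earlier results of these data known, so it is a description and not an independent check of the ChIP. Over all protein-coding genes with a curated RefSeq transcript, 7.14% had an annotated site in iQNP and 3.43% in TAP. Of the 17 listed genes, 15 (88.2%) had one in iQNP and 12 (70.6%) in TAP. The highest of them in iQNP was in the first intron of Chgb, which encodes a secretory granule protein, with 99.6 ± 29.3 normalized tags (SD, n = 2). Normalized tags are tags in the peak per 10000000 tags of the library. In TAP the highest was in an exon of Celsr3, an adhesion G protein-coupled receptor, with 83 normalized tags.

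Each gene carried 1 strong site, and all 3 strong sites were in introns and were called in both conditions. The strong site of Npas4 was in intron 1 of 7, 639 bp downstream of the TSS, on chromosome 1 from 207601827 to 207601893 of the rn4 genome in iQNP. The strong site of Camta1 was in intron 3 of 24, on chromosome 5 from 168809198 to 168809260, and 262822 bp from the nearest annotated TSS, which belongs to another Camta1 transcript than the one that gives the intron. The strong site of Phf21b was in intron 2 of 12, on chromosome 7 from 122849364 to 122849428 and 30255 bp downstream of the TSS. Among the 462 intron sites of iQNP the median distance to a TSS was 29255 bp, and 54 lay within 1000 bp and 130 farther than 100000 bp. The 3 strong sites thus ran from close to a TSS to far from any. Their TAP counterparts had centres 1 bp (Npas4), 3.5 bp (Camta1) and 6 bp (Phf21b) away, where the median over the 756 pairs of sites with centres within 50 bp was 12 bp.

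The other 3 sites were called in iQNP alone. Only peaks found with both antibodies were kept as sites, so a TAP peak of 1 antibody would not be seen here. Npas4 had a second site 2542 bp upstream of the TSS, in sequence annotated as intergenic, on chromosome 1 from 207604995 to 207605086. Phf21b had 2 further sites in the same intron 2, 1 in a CpG island 3231 bp downstream of the TSS (chromosome 7, 122876387 to 122876452) and 1 at 46398 bp (122833222 to 122833284). The Npas4 sites were 3180.5 bp apart, centre to centre, and the Phf21b sites were 16143 bp and 27023.5 bp from their neighbours along the intron.

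**Figure D1:**
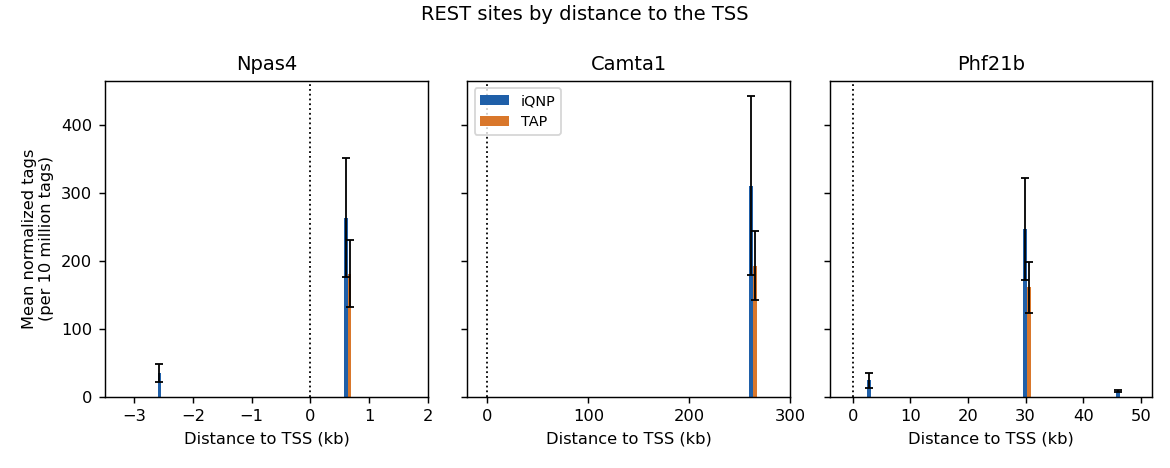
Mean normalized tags per 10000000 tags of the library (vertical axis) against distance to the TSS in kb (horizontal axis, TSS at the dotted line) for each gene, with iQNP bars in blue, TAP bars in orange, drawn side by side at each site, and SD over 2 libraries. Each gene has 1 tall site present in both conditions, and the low sites of Npas4 and Phf21b have an iQNP bar alone.

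At the strong Npas4 site, the commercial antibody gave 326.0 normalized tags in iQNP against 217.0 in TAP, and the homemade mix gave 201.8 against 146.5. At the strong Camta1 site, the commercial antibody gave 404.7 against 229.8 and the homemade mix 218.2 against 157.2. At the strong Phf21b site, the values were 300.1 against 188.2 and 194.4 against 134.2. The iQNP library was above the TAP library of the same antibody at all 3 sites on this scale, a direction that turned under the TMM normalization described with the tests, and the homemade iQNP library lay below the commercial TAP library at Npas4 and Camta1. Camta1 was above Npas4 and Npas4 above Phf21b in each of the 4 libraries. The distance between them was small beside the counting error in several libraries. With the homemade antibodies in iQNP, Camta1 had 650 tags (95% exact Poisson interval, 601.0 to 701.9), Npas4 had 601 (553.9 to 651.0) and Phf21b had 579 (532.8 to 628.1), and these intervals overlap. Such intervals allow for counting error alone. With the commercial antibody in iQNP, Camta1 had 1147 tags (1082 to 1215), clear of Npas4 with 922 (863.4 to 983.5).

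The 3 sites ranked 2 (Camta1), 3 (Npas4) and 6 (Phf21b) of 1775 by mean normalized tags in iQNP, and 2, 3 and 5 of 778 in TAP. No other intron site was higher than these 3 in either condition, out of 462 and 238 intron sites. Together with the low sites, the 6 iQNP sites were 0.338% of all iQNP sites and held 2.10% of their summed normalized tags, and the 3 TAP sites were 0.386% and held 3.80%. In iQNP, Npas4 had 263.9 ± 87.8 normalized tags (SD, n = 2) and stood next to an intergenic site near Igsf21 with 256.4 ± 101.0, a cell adhesion gene. The order of these 2 sites changed with the antibody. Phf21b, with 247.3 ± 74.7, stood between an intergenic site near Cacng2, a regulator of AMPA receptors, with 253.6 ± 88.5, and a site near Kcnk9, a potassium channel gene, with 237.6 ± 74.4. None of these neighbours differed from the member by more than the SD over antibodies, and the same held for Camta1 against Npas4, with 311.5 ± 131.9 against 263.9. This SD includes the difference between the antibodies, so it is not the error of a difference between sites. Within each library, Camta1 was above Npas4. In TAP, Camta1 had 193.5 ± 51.3, Npas4 had 181.8 ± 49.9 and Phf21b had 161.2 ± 38.2, with the Cacng2 site between the last 2 at 166.0 ± 35.4. The one site above Camta1 in both conditions, near Tll1, exceeded it by more than the SD of the Camta1 site, at 542.3 in iQNP and 252.7 in TAP.

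**Figure D2:**
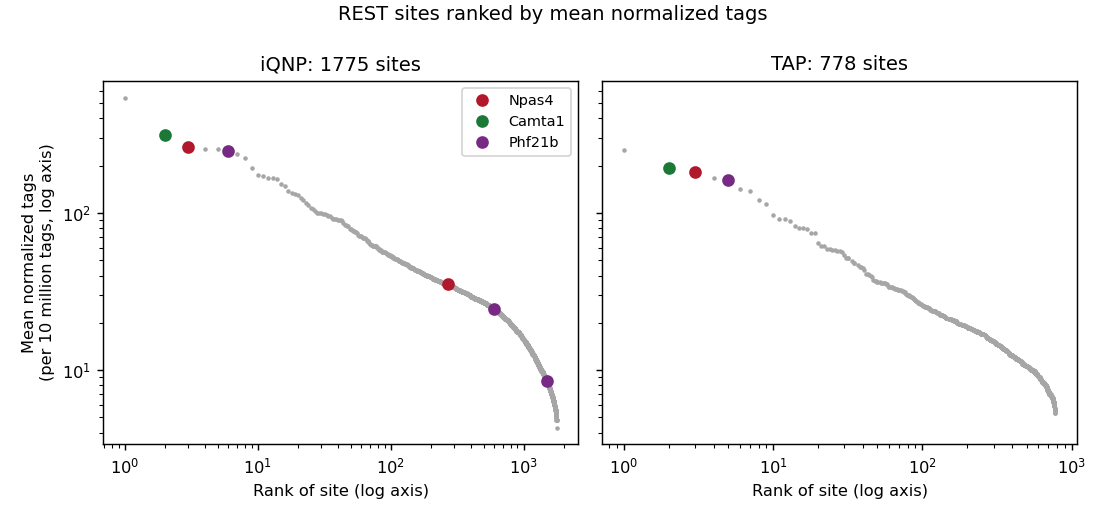
Mean normalized tags per 10000000 tags (vertical log axis) against the rank of each site (horizontal log axis) in iQNP (1775 sites) and TAP (778 sites), with the sites of the 3 genes in colour. The strong sites are at ranks 2, 3 and 6 in iQNP and 2, 3 and 5 in TAP, and the 3 low iQNP sites are at ranks 268, 602 and 1505.

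The pairs most like each strong site over the 4 ChIP libraries, by Euclidean distance in log2 normalized tags, were the other members and the sites near Cacng2 and Kcnk9. The Cacng2 site was nearest to Phf21b, at a distance of 0.11, and to Npas4, at 0.21, and Npas4 was nearest to Camta1, at 0.36. The other near pairs were Kcnk9 and Npas4 for Phf21b, at 0.27 each, Phf21b and Camta1 for Npas4, at 0.27 and 0.36, and Cacng2 and Phf21b for Camta1, at 0.51 and 0.59. The median distance of all 756 pairs was 7.10 from Npas4, 7.40 from Camta1 and 6.84 from Phf21b. The measure uses level as well as shape, so sites of like height come out near.

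The comparison of iQNP with TAP asked whether REST tags at these sites differed between the conditions. Quiescence and BMP4 came together in iQNP, so they cannot be told apart here. The ratio of normalized tags, averaged over both antibodies on the log2 scale, was 0.52 ± 0.09 (SD, n = 2) at Npas4, 0.64 ± 0.24 at Camta1 and 0.60 ± 0.10 at Phf21b. The means were thus 1.45, 1.61 and 1.53 times as high in iQNP when scaled by depth, and lower in iQNP at all 3 sites when scaled by TMM. The median of all 756 pairs was 1.04, with quartiles of 0.78 and 1.32. Of the 756 pairs, 54 had a lower ratio than Npas4, 84 a lower one than Phf21b and 102 a lower one than Camta1. Strong pairs tended to this side: among the 20 pairs with the most tags in iQNP, the 3 members included, the median was 0.82, from 0.45 to 1.23. Some of the 20 lay above the median of all pairs, among them Tll1 at 1.09 and Galr1 at 1.23.

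All pairs were tested on their total tags with edgeR's quasi-likelihood test, which took the depths as library sizes. None of the 3 pairs passed a Benjamini-Hochberg adjusted p of 0.05, where 68.4% of all pairs were called with more tags in iQNP. The log2 fold change from iQNP over TAP was 0.54 at Npas4 (SE 0.53, adjusted p = 0.325), 0.69 at Camta1 (SE 0.54, adjusted p = 0.217) and 0.62 at Phf21b (SE 0.53, adjusted p = 0.258). These p-values do not show that the levels were equal. In a paired edgeR fit that blocked on the antibody, Camta1 (log2 0.65, adjusted p = 0.0275) and Phf21b (log2 0.61, adjusted p = 0.0211) were called higher in iQNP and Npas4 was not (log2 0.53, adjusted p = 0.0543), where 94.8% of all pairs were called. With TMM normalization, which sets the typical change of the pairs to 0 and moves their median from 1.05 to -0.01, the direction turned at all 3 and edgeR called Npas4 (log2 -0.52, adjusted p = 0.0149) and Phf21b (log2 -0.44, adjusted p = 0.0455) lower in iQNP, as it did 6.75% of all pairs, while Camta1 (log2 -0.39) had an adjusted p of 0.0983. The libraries hold no outside standard, so REST binding that changed everywhere cannot be told apart from a ChIP that worked better throughout. The groups did not overlap at 1 of the 3 pairs, Phf21b, where the lowest iQNP value was 194.4 and the highest TAP value 188.2. Over all pairs 92.7% did not overlap in this direction.

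**Figure D3:**
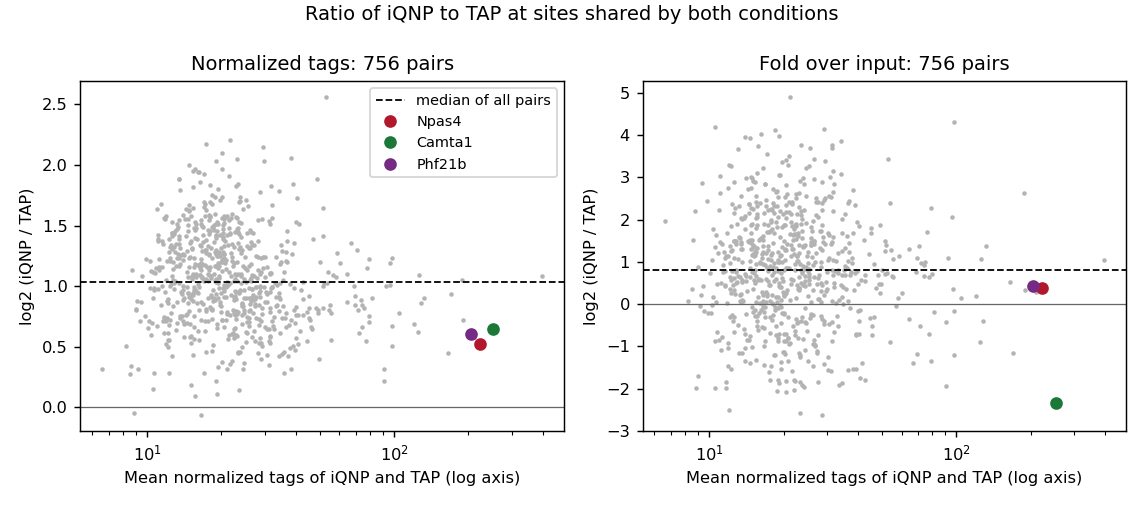
Log2 ratio of iQNP to TAP (vertical axis) against the mean normalized tags of both conditions (horizontal log axis) at 756 pairs, by normalized tags on the left and by fold over input on the right, with the median of all pairs dashed. By tags the 3 genes lie between 0.52 and 0.64, under the median of 1.04 when scaled by depth (below 0 under TMM), and by fold over input Camta1 lies at -2.35, apart from Npas4 at 0.39 and Phf21b at 0.43.

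Fold over input, the tags in the peak divided by the input tags scaled to the ChIP library, gave another picture at Camta1. In TAP its site had 653.1-fold and 446.8-fold enrichment over input with the commercial and homemade antibodies, the highest of all 778 sites with both. In iQNP it had 121.5-fold and 93.1-fold, at ranks 70 and 69 of 1775. On this scale the log2 ratio of iQNP to TAP was -2.35 ± 0.12 (SD, n = 2) at Camta1, and 3 of the 756 pairs had a lower one, while the median of all pairs was 0.81 and 25.8% of them were below 0. The commercial antibody gave 244.1-fold against 154.2-fold at Npas4 and 128.3-fold against 89.2-fold at Phf21b, and the homemade mix gave 150.6-fold against 138.8-fold and 96.7-fold against 76.3-fold. Their log2 ratios were 0.39 ± 0.39 and 0.43 ± 0.13.

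The input at the Camta1 site moved with this result. Dividing total tags by fold over input gave the scaled input without rounding, and its steps gave whole input tags at all sites with at least 50 tags and an input above HOMER's floor (within 0.1 of a whole number). The Camta1 windows held 10 and 7 input tags in iQNP, and 1 input tag each in TAP. The 2 windows of a condition overlap and draw on the same input library, so they are not independent. The exact Poisson interval of 10 tags is 4.80 to 18.4 and that of 1 tag is 0.0253 to 5.57. The highest enrichment in TAP thus rests on 1 input tag. The scaled input was higher in iQNP by 3.38 on the log2 scale in the commercial window, against a median of 0.29, and 6 of the 756 pairs, Camta1 included, reached this value. In the homemade window the difference was 2.96, against a median of 0.32, and 28 pairs reached it. Npas4 had 4 and 4 input tags in iQNP and 4 and 3 in TAP, and Phf21b had 7 and 6 in iQNP and 6 and 5 in TAP. The ChIP tags of Camta1 per depth were higher in iQNP with both antibodies, so the negative ratio of folds came from the input term of the division.

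The upstream Npas4 site had 44.0 normalized tags in the commercial library of iQNP and 26.2 in the homemade one, which put it at rank 268 of 1775. The strong site of the gene had 7.52 times its mean. The enrichment over input was 33.1-fold and 26.1-fold, with p-values against input from HOMER, the authors' peak caller, of 1.76e-139 and 6.31e-80. No TAP site lay within 200 bp, and the nearest was the strong Npas4 site, 3179.5 bp away. Of the 241 iQNP sites with mean tags within a factor of 1.2 of it, 202 (83.8%) had a TAP site. TAP tags at places without a TAP peak were not analysed here, so no TAP level is given for this site.

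Its enrichment over the local background, which HOMER takes from the tags around a peak, was low for its height. It was 5.13-fold and 4.58-fold with the commercial and homemade antibodies, and 5 and 3 of the 1775 iQNP sites had a lower value. The 241 sites of like height had medians of 40.4 and 33.1, and the lowest among them had 15.6 and 12.1. The lowest value at any TAP site was 4.52 and 4.35. Whether the tags of the strong site nearby lowered this value was not tested. Of the sites of like height, 6 had a stronger site within 10 kb, and all 6 had a TAP site. The centres of the commercial and homemade peaks were 41 bp apart at this site, where the median of iQNP sites was 15 bp and the other 5 sites of these genes had 12 to 16 bp.

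The Phf21b site in the CpG island had 32.3 (commercial) and 16.5 (homemade) normalized tags in iQNP, and ranked 602. Its enrichment was 24.1-fold and 12.3-fold over input and 25.2-fold and 14.7-fold over the local background. Among 362 iQNP sites of like height, 246 (68.0%) had a TAP site, so most sites of this height were called in TAP too. The third Phf21b site was low among the called sites, with 9.22 and 7.72 normalized tags from 26 and 23 total tags (95% exact Poisson intervals, 17.0 to 38.1 and 14.6 to 34.5). It ranked 1505 of 1775, and the lowest values of any iQNP site were 4.26 (commercial) and 4.03 (homemade). It was 6.88-fold and 5.76-fold over input (p-values from HOMER of 6.69e-14 and 5.71e-11). Of 281 iQNP sites of like height, 5 (1.78%) had a TAP site, so few sites of this height were called in TAP.

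**Figure D4:**
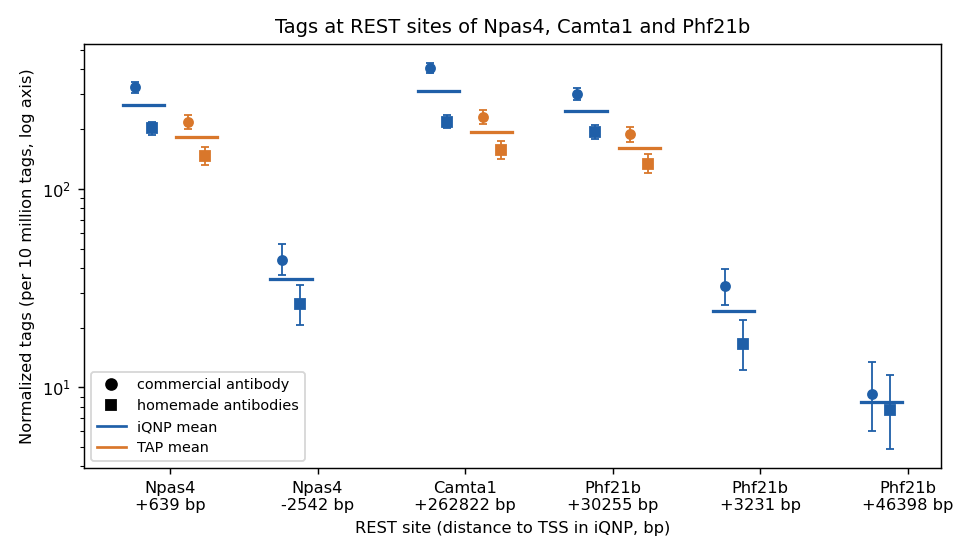
Normalized tags per 10000000 tags (vertical log axis) at the 6 sites, named by gene and distance to the TSS in iQNP, with circles for the commercial and squares for the homemade antibodies, iQNP in blue, TAP in orange, horizontal lines for means and bars for 95% exact Poisson counting intervals. The commercial antibody is above the homemade mix at every site, and the strong sites stand at 134.2 normalized tags or more in all 4 libraries.

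The commercial antibody gave more normalized tags than the homemade antibodies at all 6 iQNP and all 3 TAP sites. On the log2 scale the difference was 0.69, 0.89 and 0.63 at the strong sites of Npas4, Camta1 and Phf21b in iQNP, against a median of 0.40 over all iQNP sites, and 0.57, 0.55 and 0.49 in TAP, against 0.25. The widest gap was at the Phf21b site in the CpG island, with 0.97, above 96.6% of iQNP sites, and the narrowest at the third Phf21b site, with 0.26. The log2 ratio of iQNP to TAP was 0.82 at Camta1, 0.67 at Phf21b and 0.59 at Npas4 for the commercial antibody, and 0.47, 0.53 and 0.46 for the homemade mix.

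The enrichment over the local background was between 67.5-fold and 122.0-fold at the 3 sites over the 4 libraries, where the medians of all sites were 22.7 and 19.6 in iQNP and 16.1 and 14.8 in TAP. This value is computed from the peak tags by which the genes were chosen. Sites of like height had similar ones in iQNP, with 127.4 and 107.4 at Igsf21, 100.2 and 83.1 at Kcnk9 and 75.7 and 66.4 at Cacng2. The higher Tll1 site had 34.9 and 27.7, so the value did not rise with the tags throughout. The focus ratio, HOMER's share of tags placed as around a single binding point, was 0.86 at Camta1 with both antibodies in iQNP, and 0.90 at Npas4 with both, against medians of 0.87. Phf21b had 0.89 and 0.91. The Camta1 site was thus slightly below the median in iQNP, but in TAP it was above, with 0.867 and 0.873 against medians of 0.855 and 0.847. The strong Npas4 and Phf21b sites were above the median in all 4 libraries. The 3 low sites had focus ratios from 0.76 to 0.88. The clonal ratio, which HOMER uses to filter out peaks built of repeated tags, was between 0.52 and 0.72 at the strong sites over the 4 libraries, against medians of 0.90 to 0.93. Whether repeated or discarded tags limited the levels of such strong sites was not tested.

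Genes with several sites were common: 260 of the 1368 genes with an iQNP site had 2 or more, and 75 had 3 or more. Phf21b was among 47 genes with exactly 3. Its strong site had 10.1 times the mean normalized tags of its next site, and 2 of the 260 genes had a higher ratio, while 6 had a higher one than the 7.52 of Npas4. The median over the 260 genes was 1.62. Phf21b and Npas4 were chosen by the level of their strongest sites, which is the numerator of this ratio, so their places are a description. Of the other genes with 3 sites, Rbfox3, which encodes the neuronal splicing factor known as NeuN, had 173.2, 26.6 and 8.86 mean normalized tags, with 1 of its 3 sites called in TAP, the same number as at Phf21b. Cpe, a prohormone processing enzyme, instead had 3 sites of 172.5, 168.0 and 123.6, of which 2 were called in TAP.

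Relatives and partners of these genes were looked for among all annotated sites. As background, 7.14% of 18539 protein-coding rat genes with a curated RefSeq transcript (GRCr8) had an annotated site in iQNP and 3.43% in TAP. Small lists with 0 genes bound are thus near what is usual, and nothing is read from them. Of 15 bHLH-PAS genes other than Npas4, among them Npas1, Npas2, Npas3 and the partner genes Arnt and Arnt2, 0 had a site in either condition. Camta2 and Phf21a had none, and 0 of 18 genes of REST and its corepressor partners had one, Rest itself included. Of these 2 relatives, 1 was among the curated genes of the background, as were 17 of the 18. Of 16 other genes induced by neuronal activity, 2 (12.5%) had an iQNP site and 1 (6.25%) had a TAP site, counts too small to set apart from that background. Nptx2, which encodes a secreted synaptic pentraxin, had 2 sites called in both conditions, 3034 bp upstream of its TSS with 26.4 ± 9.76 tags in iQNP against 9.42 ± 2.09 in TAP (normalized, SD, n = 2), and 65502 bp upstream with 37.2 ± 5.09 and 9.02 ± 1.53. Egr4, an immediate early zinc finger factor, had 1 iQNP site in its 3' UTR with 25 ± 8.34 and no TAP site. These values were far under the 263.9 and 181.8 of the strong Npas4 site. The lists name the gene nearest to a site, so a site within a gene's neighbour is counted for that neighbour.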

How the data were processed

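The authors aligned the ChIP-seq reads with Bowtie2 to rn4, called peaks per library with HOMER against the input at a p-value limit of 1e-04, and kept the peaks of both antibodies that merged within 50 bp. Total tags are counts as deposited. Normalized tags are a signal that the authors set to a library of 10000000 tags, and the deposited input signal was scaled to its ChIP library. The deposited tables also give the fold over input, the fold over the local background and the clonal value as a ratio, a p-value against input, and the focus ratio as a fraction. The gene, intron and TSS distance of a site were read from the authors' annotation, joined by the name of the merged site, after 1 repeated line was dropped in each condition. All deposited sites had at least 4.01-fold enrichment over input and 4.17-fold over the local background. No rn4 sequence was used here, so the RE1 elements of these sites are not shown.

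Depth was computed as summed total over summed normalized tags. Sites were paired one to one, closest first, with centres within 50 bp. All 756 pairs were fitted with edgeR (version 4.0.16, R 4.3.3), with a condition term alone and p-values adjusted over all pairs by Benjamini-Hochberg. An exact permutation of 2 libraries against 2 cannot go below a two-sided p of 0.333. Columns were matched to antibodies by the library number in their names, so libraries with the same number are taken to share an antibody and to be paired by reagent. The deviations of same-numbered libraries had a correlation of 0.0443 across pairs. Such a correlation cannot show an antibody difference that is common to all sites. With the antibody block, edgeR's common coefficient of variation fell from 0.211 to 0.0897, and the pairs called higher in iQNP rose from 517 to 717. The SEs of the main fit thus include the difference between the antibodies. On 756 simulated pairs with 200 changed by 2 on the log2 scale, up or down, the test recovered 100% of them, with 3.38% of its calls wrong. The members had smaller log2 fold changes, from 0.54 to 0.69, and recovery of changes of that size was not tested. The simulation had as many changes up as down and no antibody difference shared by all pairs, unlike these data. Its share of wrong calls is thus not an error rate for the real pairs. Nothing says that libraries came from separate cultures, so p-values measure the spread between these libraries.

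The 3 genes and the gene lists were chosen with earlier results of these data known. Named genes were the members, the 3 nearest pairs of each, neighbours in rank, list genes with a site and up to 5 genes with as many iQNP sites as Phf21b. Alternatives were TMM, DESeq2 (version 1.42.0), the antibody block, either antibody alone, fold over input, a minimum of 20 tags, pairs within 200 bp, stricter peak limits and sites within 10 kb of the TSS. The other steps used Python 3.11.15.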

Additional observations from a re-analysis of the deposited data

How the results depend on the processing

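For 26 results, 93 values were computed under other settings, and 64 of these kept their call, their value within the spread or their count within 1.5 times. TMM and DESeq2's own size factors set the typical change to 0 by construction. They turned the log2 ratio of iQNP to TAP to -0.52 at Npas4 with either, -0.39 at Camta1 and -0.44 at Phf21b, and gave 39 and 3 pairs with more tags in iQNP in place of 517, and 51 and 3 with more in TAP in place of 0 (0 also at an unadjusted p under 0.05). DESeq2 left 308 adjusted p-values not given. With the antibody as a replicate block, the ratio was 0.65 at Camta1 and 0.61 at Phf21b, both then past the threshold, and 717 pairs had more tags in iQNP. DESeq2 with the depths gave 509. On fold over input the ratio was 0.39 at Npas4, -2.35 at Camta1, 0.43 at Phf21b and 0.81 over all pairs. Ranks on that scale, which divides by few input tags, were 13 and 600 for the Npas4 sites, 67 for Camta1 and 62, 1001 and 1663 for the Phf21b sites in iQNP, and 10, 1 and 37 for Npas4, Camta1 and Phf21b in TAP. With either antibody left out, the log2 ratio lay from 0.46 to 0.59 at Npas4, from 0.47 to 0.82 at Camta1, from 0.53 to 0.67 at Phf21b and from 0.92 to 1.16 over all pairs, and the iQNP rank from 3 to 4 and 215 to 369 at the Npas4 sites and from 4 to 6, 452 to 822 and 1451 to 1474 at the Phf21b sites. The 3 strong sites were called in both conditions under every peak limit tried, and a fold over input of at least 8 removed the third Phf21b site.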
